A study of Mus musculus with 24 samples.

Results

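The miR-467 and miR-669 miRNAs were measured with 9 TaqMan assays among the 584 miRNA assays of a pair of rodent low density cards. Members were chosen by name alone, as every mouse assay called miR-467 or miR-669 followed by a letter, and this gave 8 assays of miR-467 (miR-467a, miR-467a*, miR-467b, miR-467b*, miR-467c, miR-467d, miR-467e and miR-467e*) and 1 of miR-669 (miR-669a). The star marks, in older naming, the opposite strand of a hairpin, and 3 of the 9 assays are star forms. The 6 assays without a star lie on card A and the 3 star assays on card B. Total RNA from 12 replicates was used, 3 for each of 4 mouse cell populations. Primary cells flushed from the femur and tibia make up CT-BM, the bone marrow group. The 3 lines were taken at passage 3: L-1210 from a lymphocytic leukaemia, M1 from a myeloid leukaemia, and the adherent PYS from a teratocarcinoma. No genetic change or treatment is named for any group, each leukaemia or tumour is represented by a single line, and the strain, age and number of the mice are not given in the sources used here. A suspension culture protocol accompanies CT-BM and the series title speaks of stem cells, so whether fresh or cultured marrow was measured is not known. Bone marrow is a mixture of cell types, and in such a bulk sample fewer cells of a type and less RNA per cell cannot be told apart.

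A miRNA hairpin is cut from a longer transcript, and either strand of the resulting duplex can be loaded into an Argonaute protein, where it directs the silencing of messenger RNAs that pair with its seed. Sfmbt2 encodes a Polycomb group protein that represses gene transcription. An intron of the mouse gene holds a very large, tandemly repeated array of miRNA hairpins, which is known for its expression in the placenta and in embryonic stem cells. In the RefSeq annotation of mouse assembly GRCm38.p6, Sfmbt2 lies on chromosome 2 and 72 miRNA genes fall within it, 71 of them named miR-297, miR-466, miR-467 or miR-669. Of these, 14 are Mir467 genes and 29 are Mir669 genes, and 13 of the 14 Mir467 genes are followed by a Mir466 gene. The annotation names 10 gene copies for miR-467a and 12 for miR-669a, all of them within Sfmbt2, and 1 copy each for miR-467b, miR-467c, miR-467d and miR-467e, also within it. An assay for miR-467a or miR-669a does not separate these copies. Members of the family are close in sequence, and whether an assay also reads a relative was not tested. Genes of the same families also lie on other chromosomes (Mir467f, Mir467g, Mir467h and Mir669n), and none of the 9 assays carries their names.

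The 9 mature sequences were not matched in the sequence table used here. The host gene's promoter is shown instead, because every hairpin assayed lies inside that gene. Sfmbt2 RNA was not measured, and whether this promoter has a part in the levels below was not tested. It is the 250 bases before an annotated Sfmbt2 start at chr2:10370201-10370450 (plus strand, GRCm38.p6, RefSeq), with each CG dinucleotide in capitals.
Sfmbt2 promoter: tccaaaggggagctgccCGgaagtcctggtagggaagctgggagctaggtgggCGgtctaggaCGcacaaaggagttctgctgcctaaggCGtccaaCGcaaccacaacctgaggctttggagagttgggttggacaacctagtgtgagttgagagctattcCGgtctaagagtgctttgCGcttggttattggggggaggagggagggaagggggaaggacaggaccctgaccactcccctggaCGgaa
This window holds 8 CG dinucleotides and 58.4% G and C. Among 32851 RefSeq promoter windows of the same length the median was 6 CG, and 43.0% held at least 8. The letters TATAAA, searched on both strands, are not in it, and 12.4% of the windows hold them. The window of a second annotated start, at chr2:10372186-10372435, holds 15 CG and 60.8% G and C, and 27.3% of the windows hold at least 15. Which start was used in these cells was not measured.

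Levels were read as the threshold cycle (Ct), the PCR cycle at which signal crosses a set threshold, 1 cycle lower meaning 2-fold more template. Undetermined wells and those later than cycle 35 were counted as not detected and set to 35. Of the 108 wells expected for the 9 assays 106 were present. miR-467a was absent in 1 PYS replicate and miR-467e in 1 M1 replicate. Of those present, 57 amplified and 49 did not, and 0 combinations of assay and group were split between amplified and undetermined replicates. Over the whole table of 8969 wells, 48.3% did not amplify, and a card run held 367 to 380 wells. Blood-lineage markers (miR-223, miR-142-3p, miR-142-5p and miR-150) were detected in every replicate of CT-BM, L-1210 and M1 for 4 of 4 assays, and of PYS for 3 of 4. For the pluripotency markers of the miR-290 and miR-302 clusters that were on the cards, 8 of 8 were detected in every replicate of PYS. CT-BM detected 2, L-1210 3 and M1 2 of them in every well present, some with only 2 wells present. Apart from miR-294 in CT-BM (mean Ct 28.0), these had mean Ct of 32.7 to 34.1, near the limit. In PYS the mean Ct of the 8 was 15.7 to 20.5. The labels do not say that replicates were separate cultures or animals, so a p-value covers only the spread among these samples, and that spread may be technical.

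Of the 9 assays, 7 were detected in every replicate of bone marrow, 8 in every replicate of L-1210, and 2 in M1 as well as in PYS. The 2 assays seen in all 4 groups were the star forms miR-467a* and miR-467b*. The strands without a star (miR-467a to miR-467e) were detected in bone marrow and L-1210 and in no replicate of M1 or PYS. miR-669a was detected in L-1210 and in no other group, and miR-467e* in no group. The plot of Ct by replicate shows these patterns.

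**Figure D1:**
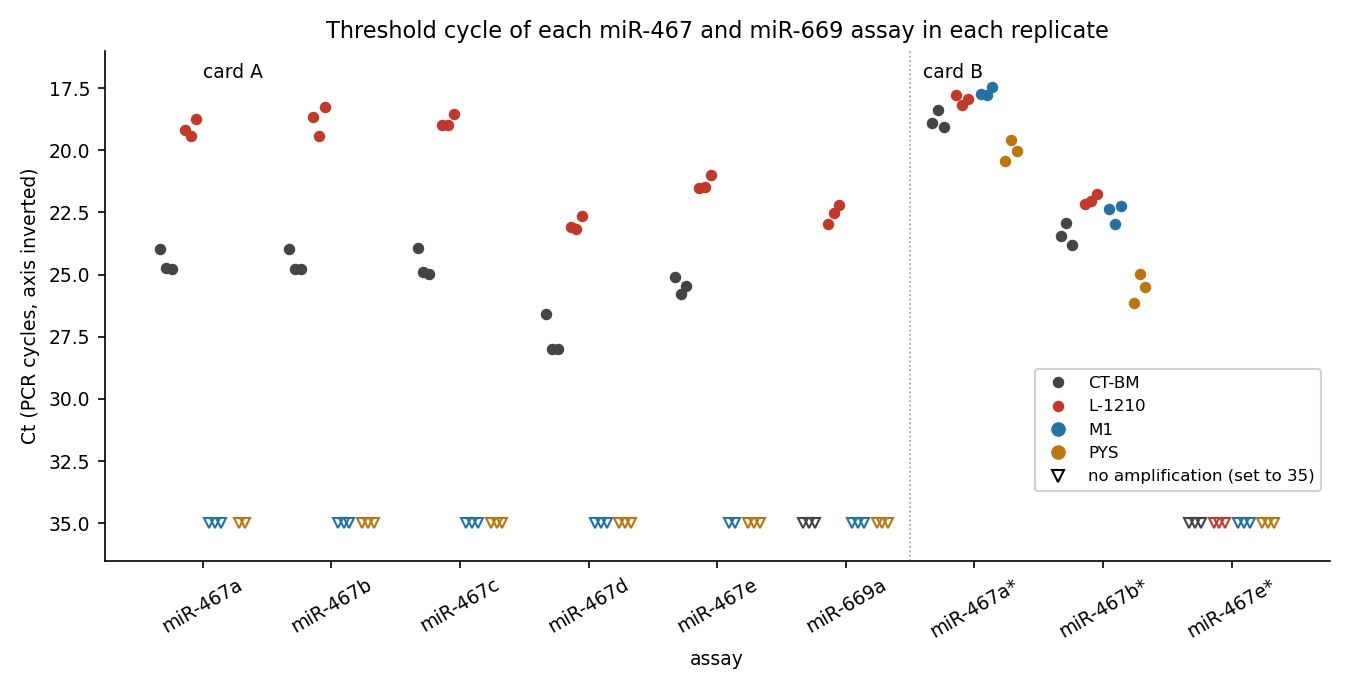
Threshold cycle (Ct, PCR cycles, axis inverted so that higher levels stand higher) of the 9 assays in each replicate, coloured by group; open triangles are wells with no amplification, drawn at 35. L-1210 points lie above CT-BM points for miR-467a to miR-467e, M1 and PYS have no amplified point for these, and miR-467a* and miR-467b* amplified in all 12 replicates.

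Before any scaling, miR-467a crossed threshold at cycles 24.0, 24.7 and 24.8 in CT-BM and at 19.2, 19.4 and 18.7 in L-1210. Every L-1210 replicate was earlier than every CT-BM replicate, by 5.38 cycles on average. miR-467b gave 24.0, 24.8 and 24.8 in CT-BM and 18.6, 19.4 and 18.3 in L-1210, again without overlap and 5.72 cycles earlier. miR-467c gave 23.9, 24.9 and 25.0 in CT-BM and 19.0, 19.0 and 18.5 in L-1210, 5.76 cycles earlier. The 3 assays thus crossed at nearly the same cycles in marrow, and at nearly the same earlier cycles in the leukaemia line.

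miR-467d came later in both groups, at 26.6, 28.0 and 28.0 in CT-BM and 23.1, 23.2 and 22.6 in L-1210. miR-467e gave 25.1, 25.8 and 25.4 in CT-BM and 21.5, 21.5 and 21.0 in L-1210. The mean advance in L-1210 was 4.56 cycles for miR-467d and 4.12 for miR-467e, and for neither assay did the groups overlap. miR-669a did not amplify in the 3 CT-BM replicates and crossed threshold at 23.0, 22.5 and 22.2 in L-1210. On the same card the mean Ct of the 3 control RNAs (MammU6, snoRNA135 and snoRNA202) was 1.00 cycle earlier in L-1210 than in CT-BM, which is less than the advance of any of these assays.

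Scaled to the 3 control RNAs within card and replicate (the negative delta Ct, a log2 scale), the 6 assays without a star rose in L-1210 against CT-BM. miR-467c was 27.1-fold higher (log2 change 4.76 ± 0.27, SE, n = 3 against 3; limma adjusted p = 4.24e-09) and miR-467b 26.2-fold higher (4.71 ± 0.25; limma adjusted p = 1.74e-09). miR-467a was 20.8-fold higher (4.38 ± 0.26; limma adjusted p = 1.63e-08). Of the 5 strands detected in both groups, these 3 had the largest changes with the 3 controls, although with quantile normalization miR-467d did (6.36, against 6.25 for miR-467b, 6.24 for miR-467c and 5.72 for miR-467a). miR-467d was 11.8-fold higher (3.56 ± 0.31; limma adjusted p = 2.63e-07) and miR-467e 8.65-fold higher (3.11 ± 0.23; limma adjusted p = 1.57e-07). With no amplification in CT-BM, miR-669a was higher by at least 2746-fold (limma adjusted p = 1.66e-12). Each fold against an undetected group is a lower bound with that group set to cycle 35. The spread in such a group is that of the control RNAs alone, so the p-value does not measure the assay's own spread there.

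In this comparison 8 of the 9 assays could be tested, which needs detection in every replicate of at least 1 group, and 6 were called higher, 0 lower and 2 not called. A call needs an adjusted p under 0.05 over all assays tested and at least a 2-fold change. Over all 333 assays tested 22.5% were called higher and 45.6% lower. Of the 6, miR-669a entered the test through L-1210 alone, so its direction follows from the filter. The median log2 change was 3.97 over the 8 assays, with miR-669a at its bound, and -0.82 over all assays tested. Among the 251 assays that amplified in all replicates of L-1210 and CT-BM, ordered from the largest increase down, miR-467c, miR-467b and miR-467a stood at places 4, 5 and 6. miR-467d was at place 9 and miR-467e at place 12. miR-467b* was at place 99 and miR-467a* at place 131.

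**Figure D2:**
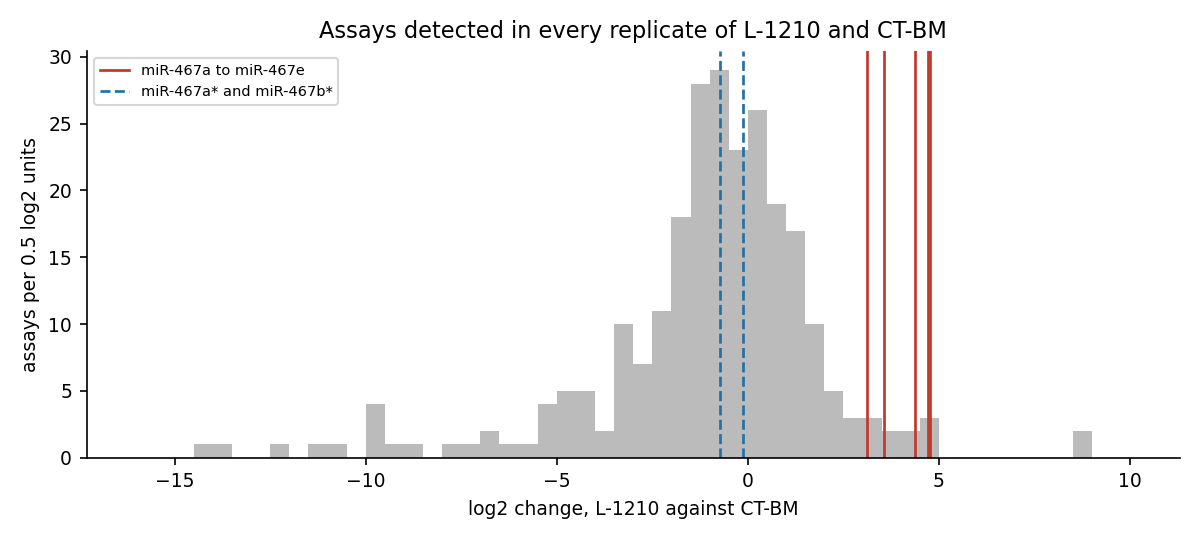
Histogram of the log2 change in L-1210 against CT-BM for the 251 assays that amplified in all replicates of the pair (assays per 0.5 log2 units, scaled to 3 controls), with vertical lines at the miR-467 assays. Solid lines, miR-467a to miR-467e, lie between 3.11 and 4.76 in the right tail, and the dashed lines of miR-467b* and miR-467a*, at -0.12 and -0.72, lie in the bulk.

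The size of these folds depended on the control used, the calls of the strands without a star did not. Over the 7 scalings tried, the change of miR-467a ranged from 2.74 (snoRNA202 alone) to 6.12 (MammU6 alone), that of miR-467b from 3.08 to 6.46 and that of miR-467c from 3.13 to 6.50. miR-467d ranged from 1.92 to 6.36 and miR-467e from 1.48 to 5.20, and all 5 were called higher under each scaling. The same scalings moved the median of all assays tested from -2.47 to 1.05, and the share of assays called higher from 12.6% (72.1% lower) with snoRNA202 alone to 48.9% (27.6% lower) with MammU6 alone. Measured from that median, miR-467a lay between 5.07 and 5.37, miR-467b between 5.41 and 5.83, miR-467c between 5.46 and 5.83, miR-467d between 4.25 and 5.95 and miR-467e between 3.81 and 4.79. These ranges are narrower than those of the changes themselves. Apart from quantile normalization, a scaling shifts all assays of a card and replicate together, so most of this narrowing follows from the subtraction.

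**Figure D3:**
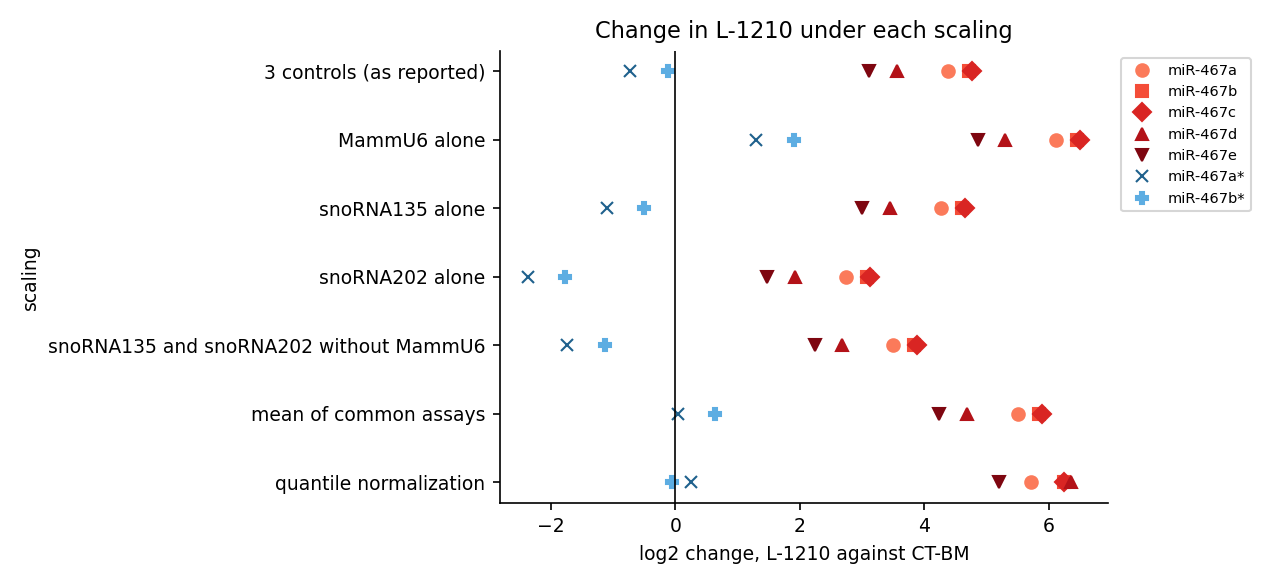
Log2 change in L-1210 against CT-BM (horizontal axis) of 7 miR-467 assays under 7 scalings (rows). The red symbols, miR-467a to miR-467e, stay right of 0 in every row, whereas the blue symbols, miR-467a* and miR-467b*, fall on both sides of 0.

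The star strands did not share this increase. miR-467a* gave Ct 18.9, 18.4 and 19.1 in marrow, 17.8, 18.2 and 17.9 in L-1210, while M1 gave 17.7, 17.8 and 17.5 and PYS 20.4, 19.6 and 20.0. It amplified in every cell type, latest in PYS, whose values overlap no other group. miR-467b* gave 23.4, 22.9 and 23.8 in marrow, 22.2, 22.0 and 21.7 in L-1210, while M1 gave 22.4, 23.0 and 22.2 and PYS 26.1, 25.0 and 25.5. It too was latest in PYS without overlap, and its CT-BM and M1 ranges overlap.

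Against CT-BM in L-1210, the log2 change was -0.72 ± 0.28 (SE) for miR-467a* (limma adjusted p = 0.0332) and -0.12 ± 0.27 for miR-467b* (limma adjusted p = 0.695). The first change was under 2-fold, so neither was called. The 95% intervals run from -1.33 to -0.11 for miR-467a* and from -0.70 to 0.46 for miR-467b*. These directions rest on the scaling: with MammU6 alone both were called higher (1.30 and 1.90), and with snoRNA202 alone both were called lower (-2.37 and -1.77). Unscaled, the star assays came 0.806 and 1.41 cycles earlier in L-1210 than in CT-BM, and for neither did the ranges overlap. The mean of the 3 controls on their card came 1.53 cycles earlier in L-1210. Measured from the median of all assays, miR-467a* lay between -0.16 and 0.25 and miR-467b* between -0.46 and 0.86 over the 7 scalings.

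The difference between the strands of 1 hairpin name was therefore compared directly, as the control-scaled level of the strand without a star minus that of the star strand. For miR-467a it was -4.35, -5.33 and -5.53 in the CT-BM replicates and -0.50, 0.21 and 0.37 in L-1210. The means were -5.07 ± 0.63 and 0.03 ± 0.46 (SD, n = 3), a shift of 5.10 log2 units with no overlap (exact two-sided permutation p = 0.1, the smallest that 3 against 3 can give). For miR-467b it was 0.20, -0.82 and -0.79 in CT-BM and 4.39, 4.04 and 4.65 in L-1210. The means were -0.47 ± 0.58 and 4.36 ± 0.30, a shift of 4.83 (exact two-sided permutation p = 0.1). Both strand differences thus moved toward the strand without a star by a similar amount. The shift was 4.82 to 5.47 for miR-467a and 4.55 to 6.30 for miR-467b under the other scalings. The strands of a hairpin were run on different cards, so strand and card cannot be told apart. The comparison was added after the values were seen, and the level of a strand without a star is not set against that of its star strand as an amount, since primers differ between assays.

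In M1 and PYS the strands without a star did not amplify, so the difference has only an upper bound there. For miR-467a the bound lay between -17.5 and -16.9 in M1 and between -14.7 and -13.5 in the 2 PYS replicates present. For miR-467b it lay between -12.5 and -12.3 in M1 and between -9.26 and -8.03 in PYS. All of these bounds are below every CT-BM and L-1210 value of the same hairpin.

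**Figure D4:**
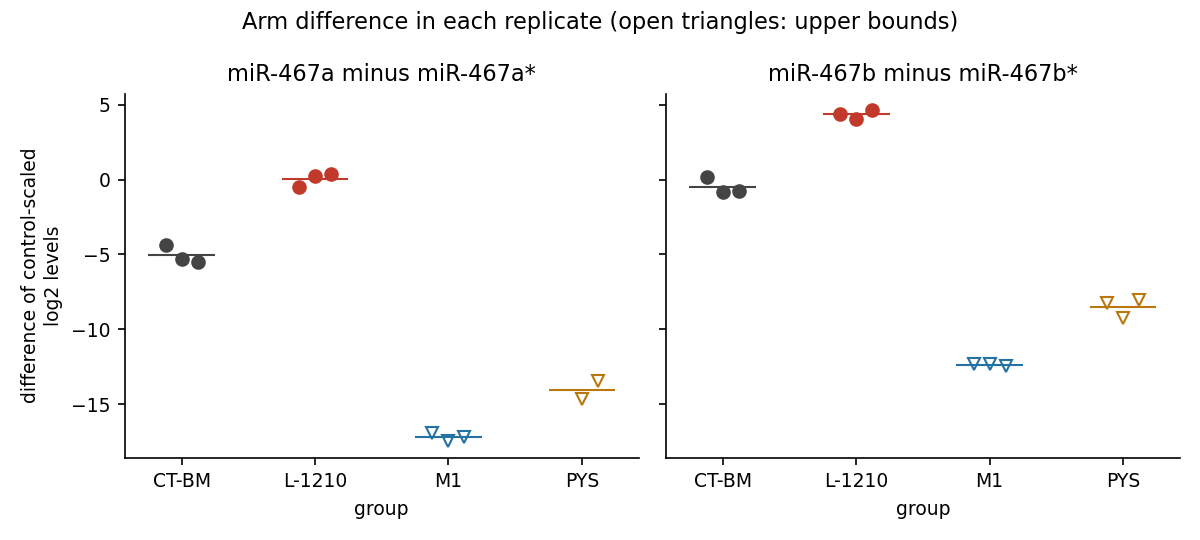
Difference between the strands of miR-467a (left) and of miR-467b (right) in each replicate, as the control-scaled log2 level of the strand without a star minus that of the star strand (vertical axis), by group, with lines at group means. Filled points are measured and open triangles are upper bounds; the L-1210 points lie above the CT-BM points in both panels, and the M1 and PYS bounds lie below them.

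Within card A, pairs of strands without a star can be compared without any control RNA, since the controls cancel. In CT-BM miR-467a and miR-467b differed by at most 0.03 cycles in each replicate (0.0017, 0.022 and -0.030, miR-467b minus miR-467a). In L-1210 the same difference was -0.527, 0.00069 and -0.488, so miR-467b came earlier in 2 of 3 replicates (exact two-sided permutation p = 0.2). Of the 10 pairs among miR-467a to miR-467e, 7 had differences whose L-1210 and CT-BM ranges did not overlap, each at the smallest exact permutation p of 0.1. How often other pairs of assays on this card separate in this way was not measured, so the count describes these pairs only. The 3 pairs that overlapped were miR-467a with miR-467b, miR-467b with miR-467c (p = 1.0, exact permutation) and miR-467d with miR-467e (p = 0.4, exact permutation).

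The clearest of these shifts was between miR-467c and miR-467e. miR-467e came later than miR-467c by 1.16, 0.907 and 0.482 cycles in CT-BM and by 2.53, 2.50 and 2.46 cycles in L-1210. The mean gap was 0.848 against 2.50 cycles. On this control-free measure miR-467a, miR-467b and miR-467c advanced more in L-1210 than miR-467d and miR-467e did, in every cross pair, with ranges that do not overlap. The cross pairs share assays, so they are not independent of one another. With quantile normalization the order differed, and among miR-467a to miR-467e miR-467d had the largest log2 change (6.36). On card B the gap from miR-467a* to miR-467b* was 4.60 cycles in CT-BM and 4.00 in L-1210 (exact permutation p = 0.1). With 11 pairs compared, the smallest p that 3 against 3 allows cannot pass an adjusted threshold of 0.05.

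In M1 against CT-BM, miR-467a to miR-467e fell and the star strands were not called. The bounds were at least 7421-fold lower for miR-467a, 7431-fold for miR-467b, 6944-fold for miR-467c, 916-fold for miR-467d and 4409-fold for miR-467e, each with M1 set to cycle 35. Their log2 changes lay between -12.86 and -9.84. The change of miR-467a* was -0.71 ± 0.28 (SE; limma adjusted p = 0.0356) and that of miR-467b* -0.96 ± 0.27 (limma adjusted p = 0.00576), both under 2-fold. The star calls rest on the scaling. With MammU6 alone the changes were 0.33 and 0.08, with snoRNA202 alone -1.47 and -1.72 (limma adjusted p = 0.000566 and 3.97e-05), and with both snoRNAs -1.23 and -1.48. Under the last 2 scalings 7 of 7 assays were called lower in M1, and with snoRNA135 alone or quantile normalization 6 of 7, with miR-467b* the sixth. Over all assays tested, the share called lower was 50.15% with snoRNA202 alone and 48.62% with both snoRNAs. It was 45.54% with snoRNA135 alone and 33.54% with quantile normalization. With the 3 controls, of 7 assays tested 5 were called lower and 0 higher, where 44.3% of the 325 assays tested were called lower and 25.2% higher. The median log2 change was -12.11 over the 7, with 5 at their bounds, and -0.59 over all assays tested. Those 5 entered the test through CT-BM alone, so their direction follows from the filter. All 3 line comparisons share the CT-BM replicates, so they are not independent of one another.

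In PYS against CT-BM, all 7 tested assays fell, the star strands included. The bounds were at least 2814-fold lower for miR-467a, 2787-fold for miR-467b, 2605-fold for miR-467c, 344-fold for miR-467d and 1447-fold for miR-467e. miR-467a* was 5.57-fold lower (log2 change -2.48 ± 0.28, SE; limma adjusted p = 2.54e-06) and miR-467b* 10.6-fold lower (-3.40 ± 0.27; limma adjusted p = 6.08e-08). With MammU6 alone miR-467a* was no longer called (-0.46, limma adjusted p = 0.326), while miR-467b* stayed lower (-1.38). Over the 362 assays tested 38.7% were called lower and 39.8% higher, and the median log2 change was 0.08, against -10.50 over the 7 assays with 5 at their bounds. Here too those 5 entered the test through CT-BM alone, which sets their direction.

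**Figure D5:**
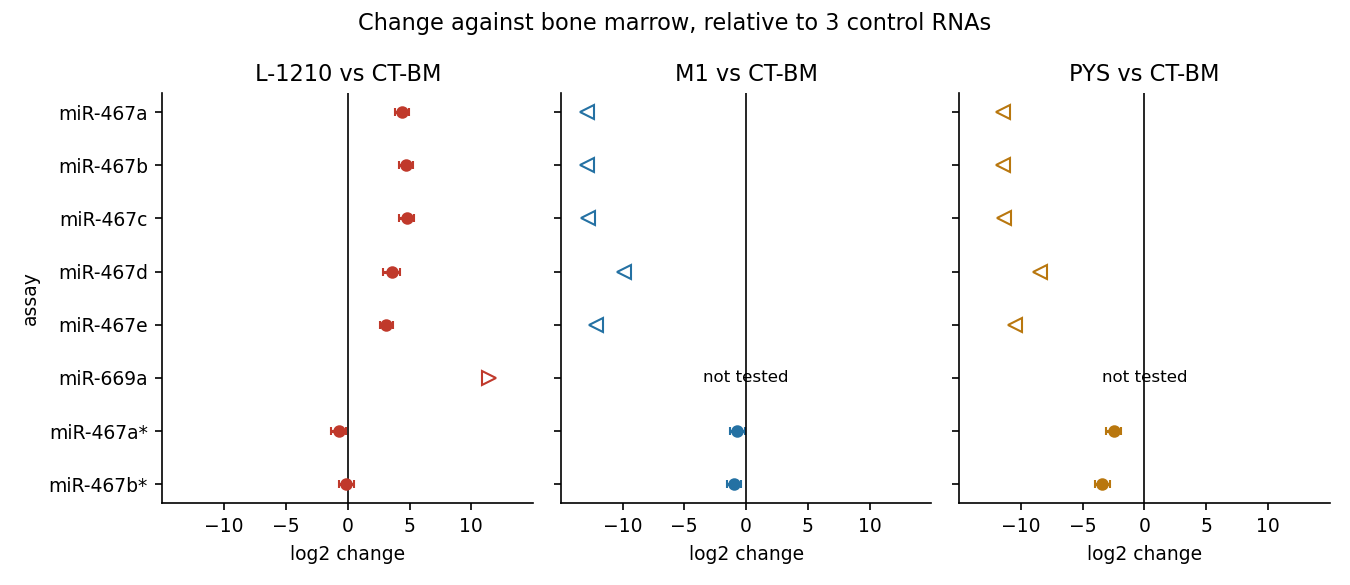
Log2 change of 8 assays in L-1210, M1 and PYS against CT-BM (horizontal axes), relative to 3 control RNAs. Filled points carry 95% confidence intervals, and open triangles are bounds against a group in which the assay was not detected; miR-467a to miR-467e lie right of 0 in L-1210 and left of 0 in M1 and PYS, and the star strands in L-1210 and M1 change sign under other scalings.

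Between the leukaemia lines, L-1210 against M1, the 6 assays without a star were higher in L-1210. The lower bounds were 194823-fold for miR-467b, 188318-fold for miR-467c, 154117-fold for miR-467a, 38146-fold for miR-467e, 14066-fold for miR-669a and 10767-fold for miR-467d. Neither star strand was called. The log2 change was -0.01 ± 0.28 for miR-467a* (limma adjusted p = 0.968), with a 95% interval from -0.62 to 0.60, and 0.84 ± 0.27 for miR-467b* (limma adjusted p = 0.0141). For miR-467b* the change was 1.82 with MammU6 alone, 1.41 with the mean of the assays common to all replicates and 1.24 with quantile normalization, each called higher in L-1210, but -0.05 with snoRNA202 alone. For miR-467a* it ran from -0.90 to 0.97 over the 7 scalings. Of the 306 assays tested, 25.2% were called higher in L-1210 and 30.7% lower. The 6 assays without a star entered the test through L-1210 alone, so their direction follows from the filter.

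In L-1210 against PYS, 8 of 8 tested assays were called higher, where 27.6% of the 351 assays tested were called higher and 45.9% lower. The 6 assays without a star entered the test through L-1210 alone, so their direction follows from the filter and only the star strands could go either way. For these 6, bounds ran from 4039-fold for miR-467d to 73082-fold for miR-467b, with miR-669a at 5277-fold. miR-467a* was 3.38-fold higher in L-1210 (limma adjusted p = 7.02e-05) and miR-467b* 9.72-fold higher (limma adjusted p = 8.55e-08). In M1 against PYS only the star strands could be tested, and miR-467a* was 3.42-fold (limma adjusted p = 6.21e-05) and miR-467b* 5.44-fold (limma adjusted p = 1.73e-06) higher in M1. Here 27.3% of 341 assays were called higher in M1 and 46.0% lower. With MammU6 alone 1 of the 2 was called, since miR-467a* was at 0.79, and with snoRNA202 alone miR-467a* in L-1210 against PYS was at 0.95, under 2-fold.

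On the control-scaled scale the order of groups was thus L-1210, then CT-BM, then M1 and PYS without detection for miR-467a to miR-467e. M1 and PYS cannot be ordered for these, since both are at the limit. For miR-467a* the mean negative delta Ct was -4.62 ± 0.42 (SD, n = 3) in CT-BM, -5.33 ± 0.16 in M1, -5.34 ± 0.47 in L-1210 and -7.10 ± 0.22 in PYS, where M1 and L-1210 did not differ beyond their spread. For miR-467b* the means were CT-BM at -9.22 ± 0.40, L-1210 at -9.34 ± 0.22, M1 at -10.17 ± 0.31 and PYS at -12.62 ± 0.32. Here CT-BM and L-1210 did not differ beyond their spread. The order of the first 3 groups for both star strands changes with the scaling.

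The other miRNAs of the array on the cards were the miR-297 and miR-466 families, with 9 assays. Of these 4 were detected, and miR-466h, miR-466a-3p, miR-466b-3-3p, miR-466c-5p and miR-466d-5p in no replicate. miR-297a* crossed threshold at 19.4, 19.8 and 18.8 in L-1210, miR-297b-5p at 26.9, 26.4 and 25.7 and miR-297c at 24.1, 24.9 and 23.5. None of these amplified in a replicate of CT-BM, M1 or PYS, the same pattern as miR-669a. Against CT-BM in L-1210 they were at least 18052-fold, 198-fold and 913-fold higher (limma adjusted p = 6.57e-13, 1.05e-10 and 5.53e-12). As for miR-669a, the CT-BM spread behind these p-values is that of the control RNAs alone.

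miR-466d-3p, like the star strands of miR-467, was detected in every group. Its Ct was 15.3, 14.7 and 15.2 in marrow, 13.9, 14.3 and 14.1 in L-1210, while M1 gave 13.9, 15.3 and 14.2 and PYS 17.2, 15.9 and 16.5. Its log2 change relative to CT-BM was -0.54 ± 0.40 for L-1210 (limma adjusted p = 0.233), with M1 at -1.17 ± 0.40 (limma adjusted p = 0.0181) and PYS at -2.68 ± 0.40 (limma adjusted p = 3.02e-05). In L-1210 against CT-BM 3 of the 4 tested assays of these families were thus called higher, where 22.5% of all assays were. These 3 (miR-297a*, miR-297b-5p and miR-297c) entered the test through L-1210 alone, so their direction follows from the filter. The count is therefore no test of them, and miR-466d-3p, detected in both groups, was not called. In M1 and PYS the only assay tested was miR-466d-3p, called lower, as were 44.3% and 38.7% of all assays. Its M1 call was lost when scaled by quantiles, by MammU6 alone or by the mean of common assays, and without CT-BM replicate 2 or 3 or M1 replicate 2 or 3, and its PYS call with MammU6 alone. Between lines, 3 of 4 were called higher in L-1210 than in M1 (25.2% of all assays) and 4 of 4 higher in L-1210 than in PYS (27.6%). In both comparisons the same 3 assays entered through L-1210 alone. miR-466d-3p was called higher in M1 than in PYS, as were 27.3% of all assays, but not with MammU6 alone.

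Across the 12 replicates, the mean negative delta Ct of the 8 detected assays was compared with each of 253 other assays. The most similar were miR-34a, a transcriptional target of p53 (Pearson r = 0.975), miR-139-3p (0.948), miR-139-5p (0.938), miR-10a, encoded in a Hox gene cluster (0.923), and miR-31 (0.916). After them came miR-20b* (0.899), miR-706 (0.878) and miR-297b-5p (0.871), the last a miRNA of the same array. These correlations describe 12 points that fall into 4 groups and share cards and controls, and undetected values at the limit take part in them. miR-34a gave Ct 22.9, 24.0 and 23.7 in CT-BM and 22.0, 21.4 and 21.1 in L-1210 and did not amplify in M1 or PYS, which is the detection pattern of miR-467a to miR-467e. miR-139-3p was detected in the same groups, at 20.1, 20.8 and 20.6 in CT-BM and at 21.0, 20.6 and 19.8 in L-1210, which overlap. miR-139-5p was detected in all groups, latest in PYS at 27.0, 26.0 and 26.5. The mature sequences of this hairpin pair (RefSeq, GRCm38.p6) are shown because both of its strands are among the 3 most similar assays, with the seed, bases 2 to 8, in capitals.
miR-139-3p: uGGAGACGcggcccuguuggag
miR-139-5p: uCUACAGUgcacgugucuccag
Their seeds differ, as each strand of a hairpin has its own.

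Markers of blood and of other cell types also differed between L-1210 and CT-BM. The blood-lineage markers, although detected in both, had a median negative delta Ct of -2.26 to -2.21 over CT-BM replicates and -11.27 to -10.97 over L-1210 replicates. Among them miR-223 had a mean Ct of 13.5 in CT-BM and 26.2 in L-1210, and miR-150 16.6 and 26.3. The other markers of this list moved little, miR-142-3p from 17.5 to 17.8 and miR-142-5p from 23.1 to 23.7. The endothelial markers miR-126-3p and miR-126-5p were detected for 2 of 2 in both groups, at medians of -4.07 to -3.98 and -6.74 to -6.42. The erythroid markers miR-451 and miR-486 were detected in every CT-BM replicate (mean Ct 20.8 and 24.8) and in no L-1210 replicate. They were 2 of 2 in CT-BM and 0 of 2 in L-1210, with a median negative delta Ct of -8.12 to -7.81 over CT-BM replicates, and in L-1210 both were at the limit. The mesenchymal markers miR-143, miR-145, miR-199a-3p and miR-214 were detected for 4 of 4 in CT-BM and 1 of 4 in L-1210. In L-1210 miR-143, miR-145 and miR-214 were at the limit, and the replicate median was -9.02 to -8.82 in CT-BM and -21.67 to -20.72 in L-1210. With the 3 controls, the medians of these lists were thus lower in L-1210, while miR-467a to miR-467e were higher. Like the miR-142 strands, miR-199a-3p moved little (mean Ct 23.8 in CT-BM and 24.5 in L-1210). On both cards MammU6 came later in L-1210 than in CT-BM and snoRNA202 earlier, so the direction of such small changes rests on the control. Other scalings of the marker medians are not given. The part of other cells in the miR-467 difference was not tested. The medians of these 4 marker lists were also lower than in CT-BM in the lines where miR-467a to miR-467e fell. The blood-lineage median was -6.61 to -6.08 over M1 replicates, with 4 of 4 detected, and -18.48 to -17.07 over PYS replicates, with 3 of 4 detected and miR-142-5p at the limit. The erythroid median was -22.74 to -22.16 in M1, where 0 of 2 were detected in every replicate, and -17.39 to -17.26 in PYS, with miR-451 detected and miR-486 at the limit. The mesenchymal median was -22.74 to -18.16 in M1 and -18.22 to -17.85 in PYS, with 2 of 4 detected in each line and miR-143 and miR-214 at the limit. The endothelial median was -6.65 to -6.34 in M1 and -7.06 to -6.57 in PYS, with 2 of 2 detected. Their part in the lower miR-467 levels of M1 and PYS was not tested. In M1 the control RNAs on card A came 2.36 cycles earlier than in CT-BM, so an unchanged Ct reads as lower once scaled. Mean Ct moved little from CT-BM to M1 for miR-142-3p (17.5 and 17.5), miR-142-5p (23.1 and 22.9) and miR-199a-3p (23.8 and 23.4). The same held for miR-126-3p (16.6 and 17.0) and miR-126-5p (21.0 and 21.0). The other markers of these 4 lists came later in M1 or were at the limit.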

How the data were processed

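RNA was isolated by the authors with mirVana reagents, per the labels, and after reverse transcription and preamplification they ran cards A and B for 40 cycles on a 7900HT instrument. The deposited table gives the threshold cycle of each well, in PCR cycles and not normalized, and its mean over wells of an assay, with the instrument software and its settings not given in the sources used here. Each replicate stands on a pair of the 24 GEO samples, 1 per card, and names were matched by group and replicate (0 value columns left unused). Values were read and joined in Python 3.11.15 (pandas 2.3.3, numpy 2.4.6). Undetermined wells and those over cycle 35 (15 wells) were set to 35. The negative delta Ct was the control mean (MammU6, snoRNA135 and snoRNA202, named in the design text) minus the assay's Ct, within card and replicate. Group means of all 4 groups over 12 replicates were estimated by lmFit and eBayes of limma 3.58.1, run under R 4.3.3, with Benjamini-Hochberg adjustment over all assays tested in a comparison. Absent wells stayed absent in the fit and took the group mean in the likeness measure. SciPy 1.17.1 gave exact permutation tests, and matplotlib 3.10.9 the figures. On simulated data for L-1210 against CT-BM (187 assays), 43.3% of true 2-fold and 93.3% of 4-fold changes were called, and 0% of unchanged assays. The simulation took assays detected in all 12 replicates and gave each its own independent noise. It thus held no undetected wells and no control RNA error shared by assays, and these shares are not error rates of the calls above. The number of replicates limits the precision, and no read depth applies. Every member was named, and the most similar assays were ranked by Pearson r. The members, lists and tests were chosen with earlier results of these data known.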

Additional observations from a re-analysis of the deposited data

How the results depend on the processing

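Alternatives were 6 other scalings, Ct limits of 32 and 40, no filter, only assays detected in both groups, only the compared groups in the fit, robust eBayes, no fold minimum, the replicate block and leaving out each of the 12 replicates in turn. For the assays without a star, 705 of 705 values kept direction and side of the threshold. Of these, only those of miR-467a to miR-467e in L-1210 against CT-BM compare groups that both amplified. The rest are against a group at the limit, so their direction was set by detection in the other group alone, and the count is no test of them. A Ct limit of 32 or 40 moved the bounds, that of miR-467a in M1 against CT-BM to -9.86 and -17.86 and that of miR-669a in L-1210 against CT-BM to 8.42 and 16.42. For the star strands 271 values held, 17 reversed, 21 newly passed and 3 no longer passed. Members lower in L-1210 than in CT-BM (0) became 1 with snoRNA135 alone, 2 with snoRNA202 alone, 2 with both snoRNAs without MammU6, 1 with no fold minimum, and 1 with no filter on detection (miR-467e*, undetected in both groups). With only assays detected in both groups, lower in M1 fell to 0 and in PYS to 2 against CT-BM, and higher in L-1210 to 0 against M1 and to 2 against PYS, since the assays at the limit leave the test. In M1 against PYS 1 was higher with MammU6 alone, and without a filter 6 were lower, all undetected in both groups.

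Reversals of miR-467a* in L-1210 against CT-BM were 1.30 (MammU6 alone), 0.045 (mean of common assays) and 0.25 (quantile normalization). There miR-467b* reversed to 1.90 and 0.65 under the first 2 of these scalings, and ranged from -0.34 to 0.044 over the replicates left out (0.044 without CT-BM replicate 2, 0.0050 without L-1210 replicate 3). In M1 against CT-BM with MammU6 alone they were 0.33 and 0.081. In L-1210 against M1, miR-467a* was 0.97 (MammU6 alone), 0.56 (mean of common assays) and 0.56 (quantiles), and ranged from -0.25 to 0.21 over replicates left out, above 0 without L-1210 replicates 2 or 3 or M1 replicates 1 or 2. miR-467b* was -0.047 with snoRNA202 alone. In M1 against CT-BM miR-467b* newly passed without CT-BM replicate 1 (-1.18) or M1 replicate 1 (-1.13), as it did in L-1210 against M1 without M1 replicate 1 (1.01). The strand shift of miR-467b was 6.30 with quantiles, and leaving out replicates gave 4.87 to 5.46 for miR-467a and 4.66 to 5.17 for miR-467b. The cause was not tested.

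Same-numbered replicates did not deviate together (correlations from -0.45 to 0.33 over 187 assays), so the numbers were not taken as pairs. With the replicate block, 6 assays were higher in L-1210 than in CT-BM, 5 lower in M1 and 7 lower in PYS, the same as without it, and no call of an assay changed. The planned strand comparison on unscaled Ct, and with a Ct limit of 32, was not run, since the strands lie on different cards.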
